A study of Collinsia rattanii with 18 samples.

Results

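The genes described here were higher in late than in early floral buds of one *Collinsia* sister species and lower in late than in early buds of the other. They number 43, which is 0.215% of the 19960 genes with a mean of at least 1 CPM (the reads of a gene scaled to the size of the library with TMM factors) in each species, in a table of 46127 genes. Of these, 29 rose in *C. linearis* and fell in *C. rattanii*, and 14 fell in *C. linearis* and rose in *C. rattanii*. A gene was taken as rising where its lowest B3 library was at least 1.25 times its highest B1 library, and as falling where its lowest B1 library was at least 1.25 times its highest B3 library. The members were thus chosen by their B1 and B3 values, and the differences between these stages are given as a description. The B2 libraries did not set a direction, but they entered the choice through the mean level and through the scaling factors, which are estimated over all libraries together. With the B2 libraries left out of both, the rule gave 26 and 14 genes, of which 26 and 13 were members.

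The study sequenced poly(A) RNA of whole pre-anthesis floral buds from grown plants, so that gene expression could be compared between *C. linearis*, a predominantly outcrossing annual, and *C. rattanii*, its highly selfing sister. In each species, 3 plants were sampled at an early (B1), a middle (B2) and a late (B3) bud stage told apart by organ size and color, which gave 18 libraries in 6 groups of 3. The same plant gave its B1, B2 and B3 libraries. The plants of each species came from more than one population, and the labels do not say which plant came from which, so plant and population cannot be told apart.

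A floral bud lays down sepals, petals, stamens and pistil, and then grows by cell expansion while pollen and ovules mature and petals take on color, so its mixture of cell types shifts between stages. Selfing plants commonly have smaller flowers with less time between pollen shed and stigma receptivity, a set of traits known as the selfing syndrome. In whole buds, fewer cells of a type and less RNA per cell cannot be told apart.

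Total counts lay between 23831351 and 41451418 per library. Scaling factors were 0.522 in *C. linearis* B3 plant 2 and 0.716 in *C. linearis* B2 plant 2, with 0.935 to 1.2 elsewhere. The 50 highest genes took 22.8% and 15.6% of the counts in these libraries, and at most 11.2% elsewhere. Pollen exine genes serve the making of the pollen wall, and 6 genes named in the study were taken here as such. For RCORA14962 the text of the study gives only lipid metabolism, as an added annotation. The 6 genes summed to 27.8 CPM in *C. linearis* B1 plant 1, against 1400 and 3190 CPM in B1 plants 2 and 3. All other libraries held 17.7 to 43.4 CPM, so B1 plant 1 stands apart from its group. RCORA14962 alone stood at 1.49, 154 and 900 CPM in *C. linearis* B1 plants 1, 2 and 3. None of the 9 genes named in the text of the study is a member. The part of these libraries in the results below was not tested.

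Opposite change was the rarest of the joint patterns. By the same gaps, 170 genes (0.852%) rose in both species and 276 (1.38%) fell in both. Whatever the other species did, 2147 genes rose and 1831 fell in *C. linearis*, whereas 579 rose and 712 fell in *C. rattanii*. The genes rising in *C. linearis* and falling in *C. rattanii* made up 0.145% of the expressed genes and those of the other orientation 0.0701%. With the scaling factors left out, the split of 29 against 14 became 20 against 18, of which 17 and 12 were among the members. A gap of 1 (no overlap only) gave 159 against 254, so the orientation with more genes changed with the gap.

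**Figure D1:**
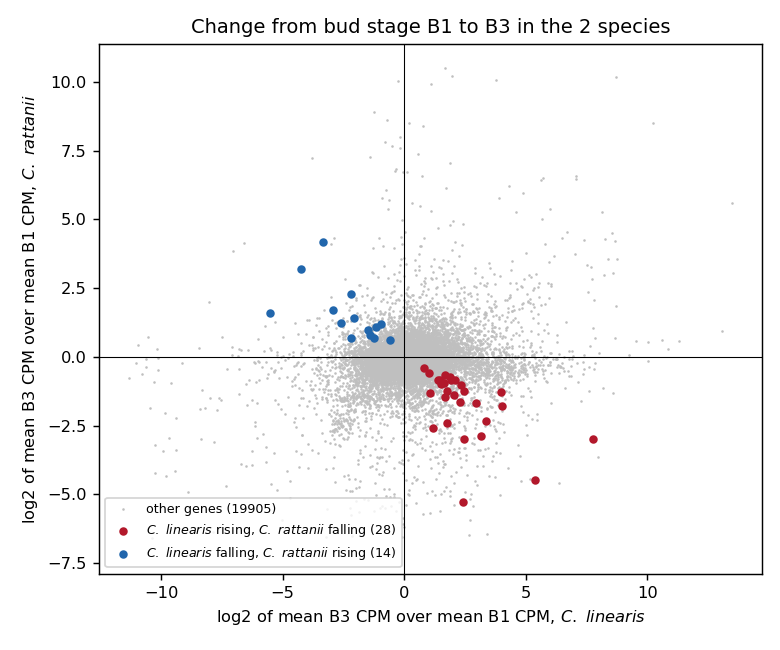
Each point is a gene with a mean of at least 1 CPM in both species, placed by the log2 ratio of its mean B3 to its mean B1 CPM in *C. linearis* (horizontal) and *C. rattanii* (vertical). The members lie in the lower right (28 of 29 drawn, since RCORA31572 had no count at B3 in *C. rattanii*) and in the upper left (14), and the rightmost member, RCORA19340, rests on 1 count at B1 in *C. linearis*.

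The number of genes meeting the rule changed when single libraries were left out. The number rising in *C. linearis* and falling in *C. rattanii* became 48 without *C. linearis* B1 plant 1, 62 without *C. linearis* B3 plant 3, 119 without *C. rattanii* B1 plant 1, 85 without *C. rattanii* B1 plant 3, 49 without *C. rattanii* B3 plant 1 and 46 without *C. rattanii* B3 plant 2. The other orientation became 39 without *C. linearis* B1 plant 1, 22 without *C. linearis* B1 plant 3, 22 without *C. linearis* B3 plant 1, 37 without *C. linearis* B3 plant 3, 35 without *C. rattanii* B1 plant 1, and 23, 25 and 31 without *C. rattanii* B3 plants 1, 2 and 3. A group of 2 libraries has a narrower range than one of 3, so these counts rise by construction. Without *C. linearis* B3 plant 3 or *C. rattanii* B1 plant 1 or 3, all 29 members still met the rule. The same held without *C. rattanii* B3 plant 1 or 2. Membership was lost most often without *C. rattanii* B2 plant 3, when 21 of the 29 and 13 of the 14 members met the rule. It was met by 22 of 29 and 13 of 14 without *C. linearis* B2 plant 2 or without *C. linearis* B3 plant 2, and by 23 of 29 and 13 of 14 without *C. linearis* B1 plant 1 or without *C. linearis* B3 plant 1. Without *C. rattanii* B2 plant 2, 27 of 29 and 11 of 14 met it. At fixed scaling factors, leaving out a B1 or B3 library cannot narrow a gap. Members lost without such a library were thus lost through the scaling factors or the mean level. With the scaling factors held as they were, leaving *C. rattanii* B2 plant 3 out of the mean level kept 28 of 29 and 14 of 14, and leaving out *C. linearis* B2 plant 2 kept 29 and 14.

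In *C. linearis*, the 29 genes of the first orientation had a median log2 ratio of B3 to B1 of 2.06, and in *C. rattanii* of -1.31. In *C. linearis* the ratio ran from 0.83 (RCORA71175) to 5.40 (RCORA33912) in the 28 genes other than RCORA19340. In *C. rattanii* it ran from -5.28 (RCORA221220) to -0.42 (RCORA71175) in the 28 other than RCORA31572, whose *C. rattanii* B3 libraries held no count. The change was the larger in *C. linearis* in 23 of the 29 genes (79.3%), beside 70.3% of all expressed genes with a ratio in both species.

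RCORA33912 stood at 0.434, 0.24 and 0 CPM at B1, 1.18, 3.57 and 7.97 CPM at B2 and 4.01, 21.5 and 2.97 CPM at B3 in plants 1, 2 and 3 of *C. linearis*, and at 3.28, 0.754 and 0.413 CPM at B1, 3.32, 0.662 and 9.12 CPM at B2 and 0.0907, 0.0796 and 0.0316 CPM at B3 in those of *C. rattanii*. Its B1 levels were near 0 in *C. linearis*, and its B3 levels were near 0 in *C. rattanii*. Its log2 ratio of B3 to B1 was 5.40 in *C. linearis*, against -4.46 in *C. rattanii*. With all libraries it had the largest opposite change of its orientation, ranked by the smaller of the absolute log2 ratios of the species. The ratio in *C. rattanii* was -3.12 without *C. rattanii* B1 plant 1, and that in *C. linearis* was 3.96 without *C. linearis* B3 plant 2 and 6.39 without *C. linearis* B1 plant 1. Of its 12 B1 and B3 libraries, 5 held under 10 counts. At B2 its range within *C. rattanii*, from 0.662 to 9.12 CPM, spanned that of *C. linearis*.

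RCORA31572 stood at 0.248, 0.0534 and 0.185 CPM at B1, 0.936, 1.26 and 3.66 CPM at B2 and 1.23, 6.04 and 0.885 CPM at B3 in plants 1, 2 and 3 of *C. linearis*, and at 1.49, 0.522 and 0.11 CPM at B1, 2.69, 0.0529 and 5.5 CPM at B2 and 0, 0 and 0 CPM at B3 in those of *C. rattanii*. It held no read in the *C. rattanii* B3 libraries, and 3 counts over that group (0.0334 CPM) put its mean at B3 at least 21.2-fold lower than at B1. In *C. linearis* its log2 ratio was 4.07. RCORA19340 stood at 0, 0.0267 and 0 CPM at B1, 0, 0 and 13.8 CPM at B2 and 4.05, 0.112 and 1.59 CPM at B3 in plants 1, 2 and 3 of *C. linearis*, and at 1.84, 3.77 and 0.688 CPM at B1, 2.92, 0.132 and 4.61 CPM at B2 and 0.363, 0.438 and 0 CPM at B3 in those of *C. rattanii*. Its *C. linearis* B1 libraries held 1 count in all, so no fold is given for that species, and in *C. rattanii* the log2 ratio was -2.98. Both genes, like RCORA33912, were highest in plant 3 and lowest in plant 2 among the *C. rattanii* B2 libraries.

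RCORA220822 stood at 0.931, 2.69 and 16.6 CPM at B1, 1.33, 24.9 and 30.5 CPM at B2 and 53.6, 98.6 and 29 CPM at B3 in plants 1, 2 and 3 of *C. linearis*, and at 33.2, 26.8 and 18.7 CPM at B1, 29.9, 14.1 and 43 CPM at B2 and 1.51, 1.39 and 7.75 CPM at B3 in those of *C. rattanii*. Levels of this gene were low at B1 in *C. linearis* plants 1 and 2 but not in plant 3, and low at B3 in all *C. rattanii* plants. The species did not overlap at B1, where *C. rattanii* was higher, nor at B3, where *C. linearis* was higher. Its mean changed by a log2 ratio of 3.17 in *C. linearis*, against -2.89 in *C. rattanii*. Without *C. linearis* B1 plant 3 the first was 5.06, and without *C. rattanii* B3 plant 3 the second was -4.18. At B2 the species overlapped.

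RCORA11919 stood at 0.651, 0.32 and 0.444 CPM at B1, 1.43, 1.46 and 2.27 CPM at B2 and 3.32, 3.19 and 1.2 CPM at B3 in plants 1, 2 and 3 of *C. linearis*, and at 3.56, 12.1 and 3.33 CPM at B1, 0.962, 1.32 and 1.86 CPM at B2 and 1.99, 0.199 and 0.221 CPM at B3 in those of *C. rattanii*. Its *C. rattanii* libraries already overlapped those of *C. linearis* at B2, and in *C. linearis* plants 1 and 2 the level went up at each stage. RCORA91961 stood at 0.869, 0.667 and 0.296 CPM at B1, 1.13, 1.58 and 2.07 CPM at B2 and 8.11, 9.34 and 1.7 CPM at B3 in plants 1, 2 and 3 of *C. linearis*, and at 3.42, 3.97 and 7.87 CPM at B1, 2.09, 3.76 and 2.16 CPM at B2 and 0.635, 0.557 and 1.83 CPM at B3 in those of *C. rattanii*. The B1 libraries of the species did not overlap, with *C. rattanii* above, and at B2 all *C. rattanii* libraries still lay above all *C. linearis* libraries. The log2 ratios of RCORA91961 were 3.39 in *C. linearis*, against -2.33 in *C. rattanii*, and those of RCORA11919 were 2.45 and -2.97. The *C. rattanii* ratio of RCORA11919 was -2.10 without *C. rattanii* B1 plant 2 and -4.91 without *C. rattanii* B3 plant 1, and that of RCORA91961 was -3.09 without *C. rattanii* B3 plant 3. Counts were under 10 in 2 of the B1 and B3 libraries for RCORA11919 and in 1 for RCORA91961.

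RCORA221220 stood at 5.83, 1.15 and 4.33 CPM at B1, 1.28, 17.2 and 1.98 CPM at B2 and 8.03, 38.9 and 13.8 CPM at B3 in plants 1, 2 and 3 of *C. linearis*, and at 63.6, 132 and 2697 CPM at B1, 7.83, 77.7 and 35.9 CPM at B2 and 28.3, 14.6 and 31.2 CPM at B3 in those of *C. rattanii*. Its *C. rattanii* B1 mean was set by plant 3, and without that library the log2 ratio in *C. rattanii* was -1.98 in place of -5.28. In *C. linearis* it was 2.43, and 1.54 without *C. linearis* B3 plant 2. The mean of *C. rattanii* was the higher at B1 and at B3, the only member of its orientation of which this was so. RCORA35370 stood at 4.84, 3.57 and 6.88 CPM at B1, 4.73, 29.1 and 16.9 CPM at B2 and 34.6, 191 and 21.8 CPM at B3 in plants 1, 2 and 3 of *C. linearis*, and at 3.91, 3.45 and 13.3 CPM at B1, 6.04, 1.4 and 8.44 CPM at B2 and 2.57, 2.51 and 0.917 CPM at B3 in those of *C. rattanii*. Its B3 level in *C. linearis* plant 2, the library with the lowest scaling factor, was the highest of all 18, but the other B3 libraries of *C. linearis* also lay above all its B1 libraries. The log2 ratios were 4.02 and -1.79, with 2.48 in *C. linearis* without B3 plant 2 and -0.88 in *C. rattanii* without B1 plant 3.

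Among the higher-count members, RCORA148318 stood at 67, 46.9 and 59.9 CPM at B1, 118, 133 and 112 CPM at B2 and 202, 320.3 and 121 CPM at B3 in plants 1, 2 and 3 of *C. linearis*, and at 106, 114 and 153 CPM at B1, 70.1, 128 and 126 CPM at B2 and 82.1, 61.7 and 80.4 CPM at B3 in those of *C. rattanii*. The rise in *C. linearis* was visible at B2 in all 3 plants, whereas the *C. rattanii* B2 libraries spread over the range of its B1 and B3 libraries. Its log2 ratio of B3 to B1 was 1.89 in *C. linearis*, against -0.73 in *C. rattanii*. RCORA127768 stood at 38.4, 49.7 and 48.5 CPM at B1, 57.4, 41.2 and 66.5 CPM at B2 and 99.8, 152 and 103 CPM at B3 in plants 1, 2 and 3 of *C. linearis*, and at 71.7, 73.9 and 107 CPM at B1, 57.5, 30.5 and 115 CPM at B2 and 50.4, 50.4 and 40.8 CPM at B3 in those of *C. rattanii*. At B1 all *C. rattanii* libraries and at B3 all *C. linearis* libraries were the higher, and the log2 ratios were 1.38 and -0.83.

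RCORA151974 stood at 6.7, 8.88 and 7.88 CPM at B1, 7.76, 6.16 and 10.5 CPM at B2 and 31.1, 22.8 and 36.4 CPM at B3 in plants 1, 2 and 3 of *C. linearis*, and at 3.39, 3.45 and 3.8 CPM at B1, 5.57, 2.86 and 9.99 CPM at B2 and 1.72, 2.71 and 1.49 CPM at B3 in those of *C. rattanii*. Its *C. linearis* level was nearly flat from B1 to B2 and rose late, and in *C. rattanii* the highest library was B2 plant 3. All *C. linearis* libraries were above all *C. rattanii* libraries at B1 and at B3, so this gene changed in opposite directions without the species trading places. Its log2 ratio was 1.95 in *C. linearis*, against -0.85 in *C. rattanii*. It was the member nearest to the threshold, with a gap of 1.25 times in *C. rattanii*.

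**Figure D2:**
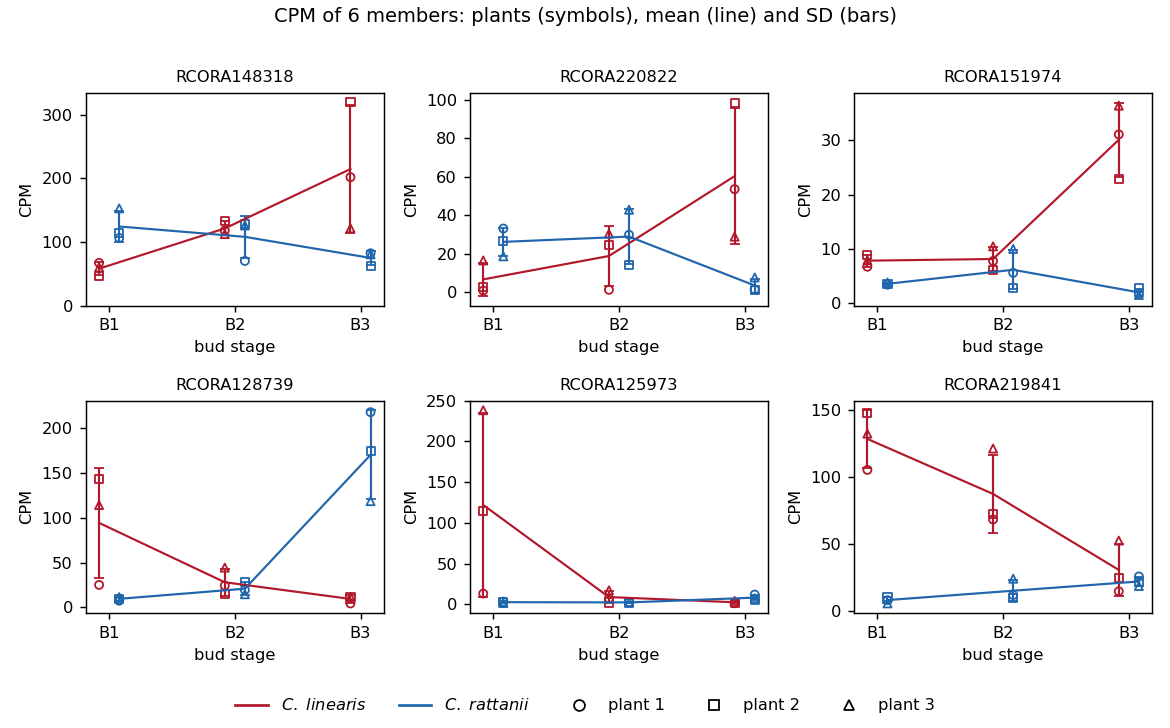
CPM (vertical) of 6 members at bud stages B1, B2 and B3 (horizontal) in *C. linearis* (red) and *C. rattanii* (blue). Symbols are the plants, lines join the means and bars are SDs over 3 plants, and the upper genes rise in *C. linearis* while the lower genes fall, with the *C. rattanii* B2 values of RCORA151974 spread from 2.86 to 9.99 CPM.

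Just inside the threshold besides RCORA151974 was RCORA40318, whose smaller gap was 1.26 times. RCORA40318 stood at 52, 46 and 42.5 CPM at B1, 54.9, 92.1 and 54.6 CPM at B2 and 65.4, 154 and 66.9 CPM at B3 in plants 1, 2 and 3 of *C. linearis*, and at 48.2, 54.7 and 47.5 CPM at B1, 45.5, 51.6 and 79.1 CPM at B2 and 31.6, 36.9 and 31.8 CPM at B3 in those of *C. rattanii*. The nearest genes outside were RCORA234136 and RCORA139727, with gaps of 1.24 and 1.24 times. RCORA234136 went in *C. linearis* from 3.97, 4.05 and 2.96 CPM at B1 to 5.53, 8.39 and 16.6 CPM at B3 and went from 7.33, 24.4 and 9.19 CPM to 5.89, 3.34 and 3.22 CPM in *C. rattanii*. RCORA139727 went from 37, 44 and 42.8 CPM to 87.3, 96.7 and 54.6 CPM in *C. linearis* and from 30.8, 32.7 and 34.8 CPM to 22.9, 22.6 and 23.4 CPM in *C. rattanii*. Their lower gap lay in *C. rattanii* for the first and in *C. linearis* for the second.

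The 14 genes of the other orientation had a median log2 ratio of B3 to B1 of -2.13 in *C. linearis*, from -5.53 (RCORA125973) to -0.60 (RCORA189435), and of 1.22 in *C. rattanii*, from 0.63 (RCORA189435) to 4.16 (RCORA128739). The change was the larger in *C. linearis* in 10 of the 14 (71.4%). Their mean over all libraries had a median of 24.9 CPM, beside 13.2 CPM in the first orientation and 21.7 CPM over the expressed genes.

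RCORA128739 stood at 25.1, 144 and 114 CPM at B1, 24.3, 15.4 and 44.4 CPM at B2 and 4.38, 12.1 and 11.8 CPM at B3 in plants 1, 2 and 3 of *C. linearis*, and at 7.44, 9.74 and 11.5 CPM at B1, 19.4, 28.5 and 14.6 CPM at B2 and 218, 174 and 119 CPM at B3 in those of *C. rattanii*. It had the largest opposite change of its orientation. Its level fell in *C. linearis* with a log2 ratio of -3.33, and rose in *C. rattanii* with one of 4.16. The species did not overlap at B1 or at B3 and traded places between them, while at B2 they overlapped. *C. linearis* B1 plant 1, the library low in exine transcripts, was the lowest of the B1 libraries and stood at its own plant's B2 level.

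RCORA125973 stood at 13.3, 115 and 238 CPM at B1, 7.34, 2.39 and 17.4 CPM at B2 and 1.43, 2.24 and 4.25 CPM at B3 in plants 1, 2 and 3 of *C. linearis*, and at 3.45, 3.13 and 1.71 CPM at B1, 2.69, 1.85 and 2.81 CPM at B2 and 12.1, 5.17 and 7.71 CPM at B3 in those of *C. rattanii*. The B1 levels of *C. linearis* were far apart, with plant 1 the lowest and plant 3 the highest. Its log2 ratio was -5.53 in *C. linearis*, against 1.59 in *C. rattanii*, where the B2 libraries lay within the range of the B1 libraries. Without *C. linearis* B1 plant 3 the former was -4.60. RCORA171216 stood at 27.3, 19.6 and 15.4 CPM at B1, 25.2, 12.4 and 4.25 CPM at B2 and 0.819, 0.224 and 2.23 CPM at B3 in plants 1, 2 and 3 of *C. linearis*, and at 0.546, 0.725 and 0.22 CPM at B1, 1.43, 8.55 and 0.433 CPM at B2 and 6.53, 2.39 and 4.65 CPM at B3 in those of *C. rattanii*. Most of the fall in *C. linearis* came between B2 and B3 in plants 1 and 2 and already by B2 in plant 3. The log2 ratios of RCORA171216 were -4.25 and 3.19, the first being -5.31 without *C. linearis* B3 plant 3, and 2 of its B1 and B3 libraries held under 10 counts.

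RCORA231839 stood at 19, 6.51 and 7.36 CPM at B1, 24.1, 6.81 and 5.02 CPM at B2 and 2.25, 3.69 and 1.2 CPM at B3 in plants 1, 2 and 3 of *C. linearis*, and at 1.03, 1.65 and 0.991 CPM at B1, 2.09, 9.66 and 0.742 CPM at B2 and 8.04, 4.5 and 5.53 CPM at B3 in those of *C. rattanii*. RCORA12029 stood at 33.3, 23.7 and 10.2 CPM at B1, 10.2, 6.97 and 1.84 CPM at B2 and 2.33, 3.41 and 3.15 CPM at B3 in plants 1, 2 and 3 of *C. linearis*, and at 0.287, 0.493 and 0.44 CPM at B1, 0.564, 4.68 and 0.464 CPM at B2 and 1.84, 1.07 and 1.04 CPM at B3 in those of *C. rattanii*. In both genes, as in RCORA171216, the *C. rattanii* B2 library of plant 2 was the highest of the 9 *C. rattanii* libraries, and those of plants 1 and 3 lay below all B3 libraries. RCORA231839 had log2 ratios of -2.20 and 2.3, and RCORA12029 of -2.92 and 1.70. Without *C. linearis* B1 plant 1 the *C. linearis* ratio of RCORA231839 was -1.48. RCORA12029 stayed higher in *C. linearis* at both ends, without overlap.

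RCORA219841 stood at 106, 148 and 133 CPM at B1, 68.4, 72.7 and 121 CPM at B2 and 14.7, 24.9 and 52.7 CPM at B3 in plants 1, 2 and 3 of *C. linearis*, and at 8.13, 10.8 and 5.73 CPM at B1, 12, 9.48 and 24.2 CPM at B2 and 25.9, 21.8 and 18.7 CPM at B3 in those of *C. rattanii*. *C. linearis* was higher at B1 and at B2 without overlap, and the species overlapped at B3. The log2 ratios were -2.06 (-2.70 without *C. linearis* B3 plant 3) and 1.43. RCORA146908 stood at 63.2, 269 and 97.8 CPM at B1, 16.8, 21.4 and 16.5 CPM at B2 and 21, 7.27 and 42.2 CPM at B3 in plants 1, 2 and 3 of *C. linearis*, and at 58.7, 62.2 and 29.2 CPM at B1, 49.7, 80.9 and 21.1 CPM at B2 and 184, 85.7 and 83.9 CPM at B3 in those of *C. rattanii*. Its *C. linearis* level was lowest at B2 in plants 1 and 3, where it lay below the same plant's B3 level. The log2 ratios of RCORA146908 were -2.61 and 1.24, and the *C. linearis* ratio was -1.78 without B1 plant 2 and -3.34 without B3 plant 3.

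RCORA133210 stood at 62.7, 41.7 and 37.2 CPM at B1, 71.1, 44.7 and 38.9 CPM at B2 and 21.9, 15.8 and 24.9 CPM at B3 in plants 1, 2 and 3 of *C. linearis*, and at 13.2, 12.1 and 8.78 CPM at B1, 18.9, 15.2 and 7.92 CPM at B2 and 22.2, 19.9 and 30.4 CPM at B3 in those of *C. rattanii*. The *C. linearis* level held from B1 to B2 and fell after B2. RCORA105704 stood at 77.6, 34.3 and 26 CPM at B1, 56.6, 69.9 and 37 CPM at B2 and 14.9, 17.1 and 20.7 CPM at B3 in plants 1, 2 and 3 of *C. linearis*, and at 10.3, 8.84 and 4.95 CPM at B1, 11.5, 16.5 and 6.31 CPM at B2 and 14.2, 13.8 and 14 CPM at B3 in those of *C. rattanii*. This gene and RCORA34253 lay just inside the threshold, with smaller gaps of 1.26 and 1.26 times. RCORA34253 went from 17.9, 12.1 and 13.7 CPM at B1 to 5.16, 4.31 and 6.16 CPM at B3 in *C. linearis* and from 3.42, 3.56 and 2.28 CPM to 5.14, 4.5 and 8.6 CPM in *C. rattanii*. Just outside were RCORA181411 and RCORA108363, with gaps of 1.23 and 1.23 times.

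**Figure D3:**
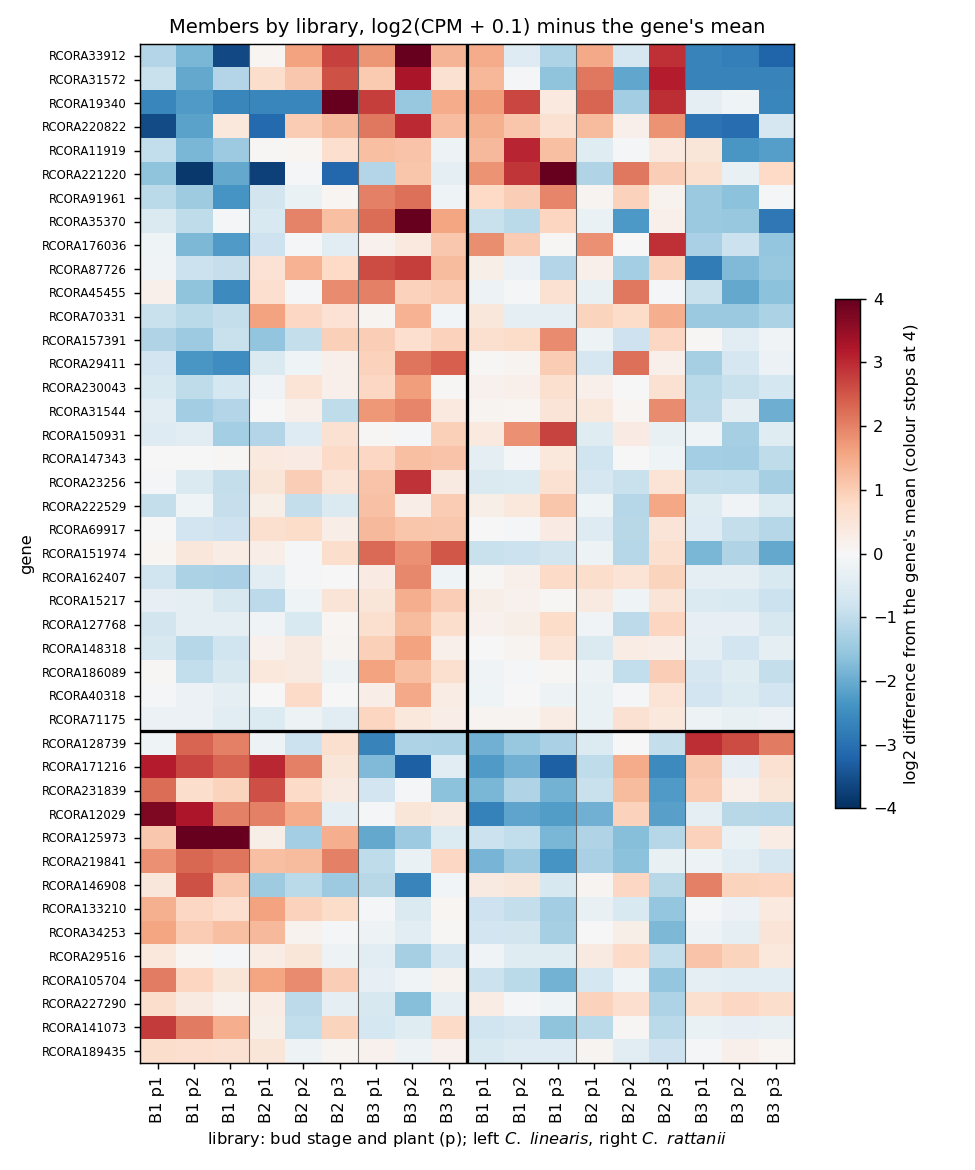
Rows are the 43 members, ranked within each orientation (29 above the line, 14 below), and columns are the 18 libraries by stage and plant (p). Color is log2(CPM + 0.1) minus the gene's mean over the libraries, and the *C. rattanii* B2 column of plant 3 is red in most upper rows and blue in most lower rows.

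The species traded places in most members. Of the 29 genes of the first orientation, the *C. rattanii* mean was higher at B1 in 28 and the *C. linearis* mean at B3 in 28, and 27 changed places, 14 of them without overlap between the libraries at either end. At B1 all *C. rattanii* libraries lay above all *C. linearis* libraries in 18 genes (background 22.3% of expressed genes) and the reverse held in 1 (19.1%), and at B3 all *C. linearis* libraries lay above in 25 (22.7%) and all *C. rattanii* libraries in 0 (25.7%). Of the 14 genes of the other orientation, *C. linearis* was higher at B1 in all 14 (13 without overlap), *C. rattanii* was higher at B3 in 10 (7 without overlap), and 10 changed places, 6 without overlap at either end. In 4 of the 14, *C. linearis* stayed higher at both ends. These levels come from the B1 and B3 libraries that chose the members, so nothing is read from the counts or the shares. No share over all genes was taken for changing places.

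At B2, which the rule did not use for direction, the libraries of the species overlapped in most members. They also overlapped in 11785 of the 19960 expressed genes. All *C. linearis* libraries were above all *C. rattanii* libraries in 1 of the 29 genes (background 19.4%), all *C. rattanii* libraries were above in 3 (21.5%), and 25 overlapped. The median log2 difference of *C. linearis* over *C. rattanii* went from -1.13 at B1 to -0.07 at B2 and 2.01 at B3. In the other orientation it went from 2.84 to 1.21 and -0.78, and at B2 *C. linearis* lay above in 3 of the 14 without overlap and *C. rattanii* in 0, with 11 overlapping. Both species were aligned to the *C. rattanii* genome, and the part of this in differences of level between the species was not tested.

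**Figure D4:**
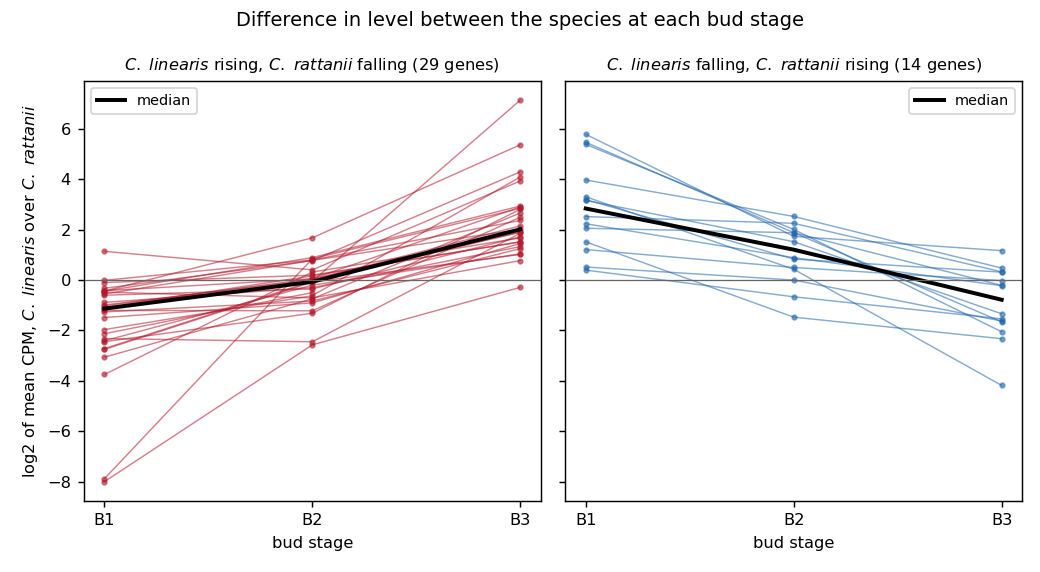
Lines are members and show the log2 ratio of mean CPM, *C. linearis* over *C. rattanii* (vertical), at the bud stages (horizontal); the black line is the median. The median crosses 0 near B2 in the 29 genes on the left (-0.07 at B2) and between B2 and B3 in the 14 on the right, and RCORA31572, with no *C. rattanii* count at B3, is drawn to B2 only.

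A test of the species difference on the 6 B2 libraries alone (edgeR's quasi-likelihood test, Benjamini-Hochberg adjusted over 25263 genes, threshold 0.01) called 0 of the 29 genes and 1 of the 14, all of which passed its filter on low counts, beside 4.80% of all genes called higher in *C. linearis* and 5.45% called higher in *C. rattanii*. The gene called was RCORA219841, higher in *C. linearis* by 2.54 ± 0.43 (SE) on the log2 scale (adjusted p = 0.00763), with all 3 *C. linearis* plants above all 3 *C. rattanii* plants. At an unadjusted p under 0.05, 2 of the 29 were higher in *C. rattanii* and 0 in *C. linearis*, and of the 14, 4 were higher in *C. linearis* and 1 in *C. rattanii*, beside 19.4% and 21.1% of all genes for *C. linearis* and *C. rattanii*. DESeq2 called 1 of the 29, higher in *C. rattanii* (RCORA176036), and 3 of the 14, higher in *C. linearis* (RCORA219841, RCORA105704 and RCORA133210), beside 13.5% of all genes called higher in *C. linearis* and 11.3% called higher in *C. rattanii*.

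The fitted log2 difference at B2 had a median of -0.05 (from -2.49 to 1.71) in the 29 genes and of 1.2 (from -1.46 to 2.54) in the 14, beside -0.10 over all genes tested. The *C. linearis* mean at B2 was the higher in 12 of the 14 and in 13 of the 29, beside 9135 of the 19960 expressed genes. All 14 had the higher *C. linearis* mean at B1, a stage that chose them, so nothing is read from the 12. RCORA105704 was higher in *C. linearis* at B2 by 2.27 ± 0.45 (edgeR adjusted p = 0.013) and RCORA133210 by 1.87 ± 0.43 (adjusted p = 0.0208), both short of the threshold. RCORA176036 was lower in *C. linearis* with a log2 difference of -2.42 ± 0.72 (adjusted p = 0.0482) and RCORA162407 with one of -0.89 ± 0.24 (adjusted p = 0.0353). No member was called when any one of the 6 B2 libraries was left out, and the calls over all genes then ranged from 0 to 2247 in place of 2589.

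The interaction of species and stage, over all 18 libraries, was called by edgeR's quasi-likelihood test in 0 of 27837 genes (0%) and so in no member, although 17.7% of genes and all 43 members had an unadjusted p under 0.05. The likelihood ratio test in DESeq2, which the study used, called 24 of the 29 and 8 of the 14 members, beside 3.25% of the genes it tested. The rule and the interaction rest on the same B1 and B3 libraries, so these counts are given beside the background and nothing is read from them. Leaving out *C. linearis* B1 plant 1 raised the edgeR calls to 133 genes, 2 of them members.

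The B1 to B3 contrast within a species is the one that chose the members, so its counts are also given beside the background and nothing is read from them. Within species, edgeR called the rise from B1 to B3 in *C. linearis* in 8 of the 29 (background 2.16%) and the fall in 3 of the 14 (2.13%). It called no member in *C. rattanii*, where it called 1 gene rising (0.00359%) and 3 falling (0.0108%) over the whole table. With plant as a replicate block, which the labels support within a species, 2 members were called in *C. linearis* and none in *C. rattanii*. With this block, 3 genes passed for the interaction, none of them a member. Without *C. linearis* B1 plant 2 or 3, or without its B3 plant 1 or 2, no member was called in *C. linearis*. For the B1 to B3 change, no share over all genes was taken with the block or without these libraries. Fewer members called thus cannot be told from fewer calls over all genes.

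In *C. linearis*, most members passed through B2 on their way, as did most genes of the table that changed. The B2 mean lay between the B1 and B3 means in 26 of the 29 genes (89.7%), beside 88.3% of all genes rising in *C. linearis* by the gap, and in 9 of the 14 (64.3%), beside 79.6% of all genes falling. At B2, the median member had covered 47.0% of its log2 change in the first orientation and 50% in the second. In *C. rattanii*, the B2 mean lay between in 13 of the 29 and above both the others in 16 (55.2%), beside 14.0% of all genes falling in *C. rattanii* by the gap. In the 14 genes rising in *C. rattanii*, it lay between in 12 (85.7%, beside 78.8% of all genes rising).

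High B2 values were in part selected, since RCORA33912, RCORA31572, RCORA19340 and RCORA12029 had a mean under 1 CPM in one species without their B2 libraries. With the minimum taken over B1 and B3 only, an alternative added after seeing the data, the *C. rattanii* B2 mean lay above both the others in 13 of 26 genes (50%), beside 13.3% of all genes falling in *C. rattanii*, and between in 12 of 13 genes of the other orientation.

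The *C. rattanii* B2 libraries were far apart for the members. The median coefficient of variation over the 3 plants at B2 was 0.586 in the 29 genes and 0.517 in the 14, beside 0.274 in expressed genes of *C. rattanii*. In *C. linearis* it was 0.310 and 0.490, beside 0.304. The members also varied more than expressed genes at the other stages. In *C. rattanii* the medians were 0.337 and 0.282 at B1, beside 0.216, and 0.244 and 0.267 at B3, beside 0.166. In *C. linearis* they were 0.33 and 0.377 at B1, beside 0.249, and 0.462 and 0.443 at B3, beside 0.264. No such value was taken for all genes changing in *C. rattanii* by the gap. *C. rattanii* B2 plant 3 was the highest of the 3 plants in 21 of the 29 genes and the lowest in 0. Among all genes falling in *C. rattanii* by the gap, it was the highest in 37.5% and the lowest in 40.6%. Plant 2 was the lowest in 19 of the 29 (65.5%), beside 38.8% of all genes falling in *C. rattanii* by the gap. Plant 3 was above all 6 B1 and B3 libraries of its species in 17 of the 29 (58.6%), beside 15.2% of the 712 genes falling in *C. rattanii* by the gap and 23.4% of expressed genes. With the minimum over B1 and B3 only, this was so in 14 of 26 (53.8%), beside 14.4%. Leaving out this library lost more members than leaving out any other, but 21 of 29 and 13 of 14 were kept. With the scaling factors held, 28 of 29 and 14 of 14 were kept.

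The genes rising in *C. rattanii* showed the reverse in the same library. Plant 3 was the lowest B2 library in 12 of the 14, beside 42.8% of the 579 genes rising in *C. rattanii* by the gap. It lay below all 6 B1 and B3 libraries in 7 (50%), beside 19.2% of the 579. Plant 2 was the highest B2 library in 9 of the 14 (64.3%), beside 47.7% of the 579. It lay above all 6 B1 and B3 libraries in 5 of the 14 (35.7%), beside 20.6% of the 579. Plants 1 and 2 lay below all B1 and B3 libraries in 0, beside 6.22% and 8.29%. Without plant 3, the B2 mean lay between B1 and B3 in 16 of the 29 and 8 of the 14, in place of 13 and 12. This library had the most counts (34589916) and the lowest scaling factor (0.935) of the *C. rattanii* libraries, and its exine genes summed to 30.6 CPM, within their range of 21.9 to 43.4 CPM in that species. The pattern was noticed in these data and was not tested.

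**Figure D5:**
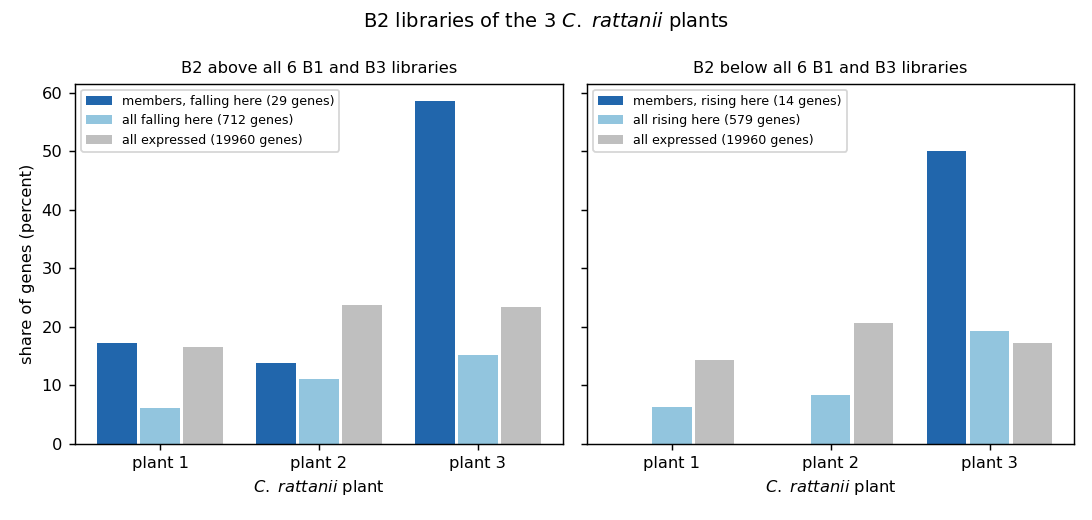
Bars give the share of genes (vertical, percent) whose B2 level in one *C. rattanii* plant (horizontal) lay above (left) or below (right) all 6 B1 and B3 libraries of that species, for the members, for all genes changing that way in *C. rattanii* and for all expressed genes. Plant 3 stands at 58.6% of the members on the left and 50% on the right.

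The plants also differed at the stages that chose the members. *C. linearis* B1 plant 1, the library low in exine transcripts, was the highest of its group in 20 of the 29 genes and in 10 of the 14, beside 43.1% of expressed genes. *C. linearis* B3 plant 2, the library with the lowest scaling factor, was the highest in 17 of the 29, beside 31.5%. *C. rattanii* B1 plant 3 was the highest in 19 of the 29, beside 40.4%, and the lowest in 10 of the 14, beside 48.4%. These libraries chose the members, so nothing is read from the counts. Summed over the 29 genes, CPM in *C. linearis* lay between 350.2 and 441 at B1, between 627 and 786 at B2 and between 941 and 2156 at B3. In *C. rattanii* the sum was 685 and 769.5 CPM in B1 plants 1 and 2 and lay between 362 and 389.8 CPM at B3, with 3517 CPM in B1 plant 3, most of it RCORA221220.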

How the data were processed

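RNA-seq counts of whole floral buds were analysed for 18 libraries, grouped by the species, bud stage and plant in the sample labels. Reads from either species were mapped by the authors on the *C. rattanii* assembly with STAR (2-pass), and they counted reads per gene model with featureCounts. The deposited values are raw counts, not normalized. They cover 46127 genes, fewer than the gene models that the study reports. The strand setting of the counting was not given in the sources read, so overlapping and antisense genes cannot be told apart. Near-identical genes cannot be told apart here either. The table names genes by identifier only, and 2 library columns that match no single sample were not used. The members, named genes and lists were chosen with earlier results of these data known, and 3 genes (RCORA02590, RCORA68085 and RCORA38638) were left out by the rule.

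CPM values used TMM factors on all genes (edgeR 4.0.16, R 4.3.3). A species difference at B2 was tested with edgeR's quasi-likelihood test on the 6 B2 libraries, and the species by stage interaction and the B1 to B3 changes on all 18, after filterByExpr, at a Benjamini-Hochberg adjusted p of 0.01, the threshold of the study. DESeq2 1.42.0 (likelihood ratio and Wald tests) was an alternative. Scripts were tested on simulated counts. SEs were computed from the log2 change and its F statistic. Log2 ratios in the text are of mean CPM. Plants are the replicates, and p-values measure the spread between 3 plants per group. The main fits on all 18 libraries had no plant term, so they treated the 3 libraries of a plant as independent.

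Libraries of a plant pair across stages by the labels. Deviations from the group means of libraries of the same plant correlated between -0.45 and 0.641 (median -0.0505, 18 pairs), and those of different plants had a median of 0.0152. The same plant number in the 2 species marks no shared plant, so B2 has no paired fit. Within groups, pairs of libraries differed by a chi-square per degree of freedom of 49.5 or more, so none was counted as a duplicate. Named were the first 8 genes of each orientation by the smaller absolute log2 ratio, the 3 with the highest mean CPM, those called at B2 (at most 3), RCORA151974, picked for a label in a figure of the study that is not used here, and the 2 nearest genes on each side of the threshold. RCORA176036, RCORA162407, RCORA71175 and RCORA189435 were singled out after their values were seen.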

Additional observations from a re-analysis of the deposited data

Results flagged for a closer look

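The effect of bud stage differed in direction between the species in 29 genes that rose in *C. linearis* and fell in *C. rattanii* and in 14 genes that fell in *C. linearis* and rose in *C. rattanii*, with every B3 library on one side of every B1 library in each species and on the opposite side in the other. This is what the rule selected, so the difference was not tested independently for these genes. The interaction fit in edgeR, on the same libraries, called none of the 43 at a threshold of 0.01, and the likelihood ratio test in DESeq2 called 32. Groups held 3 libraries each, too few for a check of single libraries against the rest of their group.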

How the results depend on the processing

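The numbers of genes rising and falling in *C. linearis*, with *C. rattanii* the reverse (29 and 14), were 25 and 13 with median-of-ratios size factors (24 and 13 of them members), 28 and 13 with TMM on filtered genes (26 and 12 members) and 20 and 18 with plain CPM. A gap of 1 gave 159 and 254, a gap of 1.5 times 12 and 6, and a gap of 2 times 2 and 3. With no minimum CPM they were 216 and 269, and with a minimum of 5 CPM 18 and 9. Leaving out single libraries or whole plants gave 22 to 177 and 12 to 48, highest without *C. rattanii* plant 1 (177) and, for the other orientation, without *C. linearis* plant 1 or *C. rattanii* plant 1 (48 each).

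At B2, 1 member and 2589 genes were called. FDR 0.05 gave 5 and 6661, DESeq2 4 and 7000, and the fit on all 18 libraries 3 and 5561. Without single B2 libraries no member (0 to 0) and 0 to 2247 genes were called (0 without *C. rattanii* B2 plant 1), which leaves groups of 2 and 3. For the interaction (0 members, 0 genes), FDR 0.05 gave 1 and 2, DESeq2 32 and 855, and the replicate block 0 and 3. Without single libraries the calls were 0 to 2 members and 0 to 133 genes, the highest without *C. linearis* B1 plant 1. Of the 11 members called for their B1 to B3 change in *C. linearis*, the replicate block left 2, and DESeq2 called 29 in *C. linearis* and 5 in *C. rattanii*. Without single libraries these were 0 to 15 and 0 to 1. They were 0 without *C. linearis* B1 plant 2 or 3 or B3 plant 1 or 2, 5 without its B1 plant 1, 6, 4, 6, 5, 4 and 6 without *C. rattanii* B1 plants 1 and 2, B2 plant 1 and B3 plants 1, 2 and 3, and 8 to 15 otherwise. For the B1 to B3 changes, no share over all genes was taken under these alternatives. That contrast chose the members, so nothing is read from its counts. The cause of the shifts was not tested.

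Alternatives added after seeing the data, for the position of B2 and for the part of B2 in the choice (26 and 13 genes with the mean level over B1 and B3 only), moved no count by over 1.5 times. Of 1008 values of named genes under alternatives, none reversed and 25 moved by more than the SD between plants. RCORA31572 and RCORA19340, with 0 and 1 counts in a group of libraries, were not among the genes checked. Most named genes are members, whose B1 and B3 libraries lie apart by the rule. Leaving out a library could thus hardly reverse a sign, and nothing is read from the lack of reversals. Counts under 10 in at least 1 B1 or B3 library limit RCORA31572, RCORA19340, RCORA33912, RCORA11919, RCORA91961, RCORA171216 and RCORA29411.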

Other observations

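The 3 genes left out by the rule did not reach its gap in these values. The smaller of the gaps was 1.02 times for RCORA02590, 0.962 times for RCORA68085 and 0.154 times for RCORA38638. RCORA02590 rose in every *C. linearis* plant, from 10.9, 20.8 and 21.9 CPM at B1 to 112, 97.2 and 66.6 CPM at B3, and went from 24.2, 18.6 and 10.8 CPM to 5.62, 10.6 and 5.69 CPM in *C. rattanii*.

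RCORA108363, just outside the threshold, had 3.04, 3.41 and 2.74 CPM at B1 and 1.64, 1.4 and 2.02 CPM at B3 in *C. linearis*, and 2.76, 2.29 and 3.28 CPM at B1 and 5.59, 4.7 and 4.01 CPM at B3 in *C. rattanii*. RCORA181411, also outside, had 29.2, 23.4 and 27.3 CPM at B1 and 10.1, 8.78 and 19 CPM at B3 in *C. linearis*, and 11, 10.6 and 6.28 CPM at B1 and 15.2, 16.5 and 23.4 CPM at B3 in *C. rattanii*.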
